A study of Mus musculus with 12 samples.

Results

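Mouse genes whose symbol starts with Nduf encode the nuclear subunits of respiratory complex I and part of the machinery that assembles it, and their transcripts were measured by RNA sequencing in 12 liver samples. The deposited tables held 46 such symbols among 24787 genes. Of these, 36 encode complex I subunits and 8, the Ndufaf genes, encode assembly factors. The other 2, Ndufa4 and Ndufa4l2, carry the name without being complex I subunits: the Ndufa4 protein belongs to complex IV (cytochrome c oxidase) and Ndufa4l2 is its paralog. All 46 had enough counts to be tested. The series is about mitophagy, the clearance of mitochondria by autophagy, and PROTACs, compounds designed to recruit a ubiquitin ligase to a chosen protein. It tested MEC1, a compound known here by its code name alone. C57Bl/6 mice were in 3 groups of 4 samples. HFD+MEC1 mice ate a high-fat diet and then, after 2 months, were given MEC1 at 0.5 mg/kg each day by intraperitoneal injection. HFD mice ate the same diet for the same time and were given vehicle by the same daily route. ND mice ate a normal diet, and the sources used here do not say whether they were injected, how old the mice were or how long dosing lasted. The labels do not state that each sample was a separate mouse, so p-values measure the spread between these samples, which may be technical.

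Complex I, NADH:ubiquinone oxidoreductase, is the entry point for electrons from NADH into the respiratory chain and pumps protons across the inner mitochondrial membrane. Its matrix arm consists of an N module, which oxidises NADH, and a Q module, which passes the electrons to ubiquinone. The membrane arm moves the protons, and its hydrophobic core is encoded by mitochondrial DNA; those genes were not analysed here. Around the catalytic core sit supernumerary subunits, and assembly factors such as the Ndufaf proteins build and modify the modules without remaining in the finished enzyme. In hepatocytes, complex I reoxidises the NADH made by fatty acid oxidation and the citric acid cycle.

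The promoters of 40 of the 46 genes were found in RefSeq (GRCm38.p6), each as a window of 300 bases that ends 50 bases after the annotated start. The 4 shown here are those of the genes on which the comparisons turn: Ndufa6 and Ndufs4, with the smallest p-values under MEC1, and Ndufa8 and Ndufaf4, the only members past the test. Each is written 5′ to 3′ on the strand of the gene, with capitals marking TGCGCA, the core of the binding motif of the transcription factor NRF1, or AAGATGG, a motif of the factor YY1.
Ndufa6, chr15:82354242-82354541, minus strand: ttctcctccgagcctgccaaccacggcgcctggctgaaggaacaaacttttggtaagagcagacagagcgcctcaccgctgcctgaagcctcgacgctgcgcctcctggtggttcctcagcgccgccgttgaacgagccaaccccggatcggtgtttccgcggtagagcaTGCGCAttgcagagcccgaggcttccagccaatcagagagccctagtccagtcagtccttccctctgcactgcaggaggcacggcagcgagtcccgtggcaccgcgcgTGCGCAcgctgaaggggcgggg
Ndufs4, chr13:114388045-114388344, minus strand: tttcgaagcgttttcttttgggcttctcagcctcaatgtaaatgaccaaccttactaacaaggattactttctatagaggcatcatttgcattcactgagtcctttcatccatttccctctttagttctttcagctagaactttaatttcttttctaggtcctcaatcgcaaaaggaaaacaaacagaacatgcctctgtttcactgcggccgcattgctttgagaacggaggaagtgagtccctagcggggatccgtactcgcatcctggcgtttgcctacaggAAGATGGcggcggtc
Ndufa8, chr2:36049289-36049588, minus strand: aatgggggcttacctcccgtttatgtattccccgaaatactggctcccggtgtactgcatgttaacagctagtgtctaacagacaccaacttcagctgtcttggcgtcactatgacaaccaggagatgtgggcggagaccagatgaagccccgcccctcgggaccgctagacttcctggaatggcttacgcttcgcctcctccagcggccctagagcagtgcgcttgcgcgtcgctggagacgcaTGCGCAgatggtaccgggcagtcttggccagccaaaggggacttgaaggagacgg
Ndufaf4, chr4:24897833-24898132, plus strand: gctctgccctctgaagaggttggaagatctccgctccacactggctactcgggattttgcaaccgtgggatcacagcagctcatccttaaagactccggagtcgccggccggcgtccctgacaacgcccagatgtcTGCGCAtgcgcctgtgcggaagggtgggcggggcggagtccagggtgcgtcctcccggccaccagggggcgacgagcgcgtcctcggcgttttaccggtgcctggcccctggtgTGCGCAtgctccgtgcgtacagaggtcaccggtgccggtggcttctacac
The Ndufa6 window held TGCGCA at 2 places and the Ndufa8 window at 1, next to the annotated start. The Ndufaf4 window held it at 2 places. The Ndufs4 window held AAGATGG after the start and no TGCGCA. In GENCODE M21, on the same assembly, Ndufa6 lies on chromosome 15, 82350140 to 82354322, Ndufs4 on chromosome 13, 114287795 to 114388258, Ndufa8 on chromosome 2, 36036326 to 36049406 and Ndufaf4 on chromosome 4, 24898083 to 24905001, and no exon of these 4 overlaps another gene.

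Searched on both strands, TGCGCA was in 11 of the 40 Nduf windows (27.5%) against 13.7% of the 10991 windows of tested genes. AAGATGG was in 8 of 40 against 7.06%, and all 8 lay on the strand of the gene, with their first base between positions 11 and 39 counted from 1 at the start of transcription. Strand and position were not counted for the matches in tested genes, so neither can be called particular to Nduf genes. The 8 matches are set out below in 20 bases each, from genes of every module of the matrix and membrane arms and from Ndufaf8.
Ndufs4: cctacaggAAGATGGcggcg
Ndufs6: tcaccggcAAGATGGcggcg
Ndufs7: ccgaggccAAGATGGcggcg
Ndufa9: tgtgggagAAGATGGcggcc
Ndufa3: ccaagaacAAGATGGccggg
Ndufc1: tgcggaacAAGATGGcgccg
Ndufb8: agaaggtgAAGATGGctgcc
Ndufaf8: cagggcccAAGATGGcggcg
In each line the capitals are AAGATGG and the letters on either side are the gene's own sequence. CCGGAAG, a motif of ETS factors, was in 6 of the 40 Nduf windows and 17.02% of those of tested genes. AAGGTCA, which the estrogen-related receptors bind, was in 7.5% against 3.45%, and its longer form TCAAGGTCA was in 0 against 0.318%. Median GC content was 59.3% in the Nduf windows and 60.3% in those of tested genes. A match is a description of the letters and not evidence that a factor binds there.

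The 12 libraries held 39916405 to 51340317 counts, of which Nduf transcripts made up 0.214 to 0.317%. Of 24787 genes, 14172 were tested, and at an adjusted p under 0.05 edgeR called 4 between HFD+MEC1 and HFD, 893 between HFD and ND and 644 between HFD+MEC1 and ND. The first of these counts rested on single libraries, with 460 calls without HFD+MEC1 replicate 1. The hepatocyte markers Alb and Apoa1 stood at 50695 CPM or more and 5287 CPM or more in every library, and the adipocyte markers Lep and Plin1 and the muscle marker Acta1 had 0 counts in all 12. The other markers of these 2 lists had counts in few libraries, with Adipoq in 2, Myh4 in 1 and Ckm in 1, at 0.0967 CPM or less. HFD+MEC1 replicate 3 stood apart: on the second principal component of all tested genes, with 18.1% of the variance, it lay at -55.9, while the other 11 libraries lay between -26.7 and 24.6. Its summed level of 8 hepatocyte markers was the lowest of the 12 at 26597 RPKM, against 31564 to 40878 RPKM in the other libraries. Alb made up most of that sum, at 19190 RPKM in this library, while Apob was the highest of the 12 there at 444 RPKM and Hnf4a the second highest at 115 RPKM. The markers thus differed in direction, and the reason for the low sum was not tested. In liver tissue, fewer hepatocytes cannot be told apart from less of these transcripts per hepatocyte.

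Levels between genes are given as RPKM, reads scaled by transcript length and library size, which the authors computed. The subunits spanned a 15.4-fold range by their median over 12 libraries, with 30 of 36 at 20 RPKM or more in every library. Ndufb9, a distal membrane arm subunit, was the highest at 147 RPKM, followed by Ndufa6 at 118.2 RPKM and Ndufb10 at 98.2 RPKM. Another gene on the same strand overlaps 19.5% of the exonic bases of Ndufb9. Ndufa11, which holds the membrane arm together, was the lowest subunit at 9.54 RPKM. That rank and the 15.4-fold range depend on the lengths used for RPKM, which are not given in the sources used here. In CPM, which are not scaled by length, Ndufa11 stood at 26.1 to 37.1 and Ndufa12 lower, at 11.3 to 21.4. Ndufs1, the largest iron-sulfur subunit of the catalytic core, stood at 30.5 RPKM and Ndufv1, which binds NADH, at 59.5 RPKM. The 8 Ndufaf transcripts lay lower, from 1.28 RPKM for Ndufaf5 to 15.3 RPKM for Ndufaf8, and their sum in a library was 0.0296 to 0.0364 times that of the subunits. Ndufa4 exceeded every subunit at 305 RPKM, and Ndufa4l2, known as a target of the hypoxia response, was at 0.500 RPKM, from 13 to 46 counts a library.

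**Figure D1:**
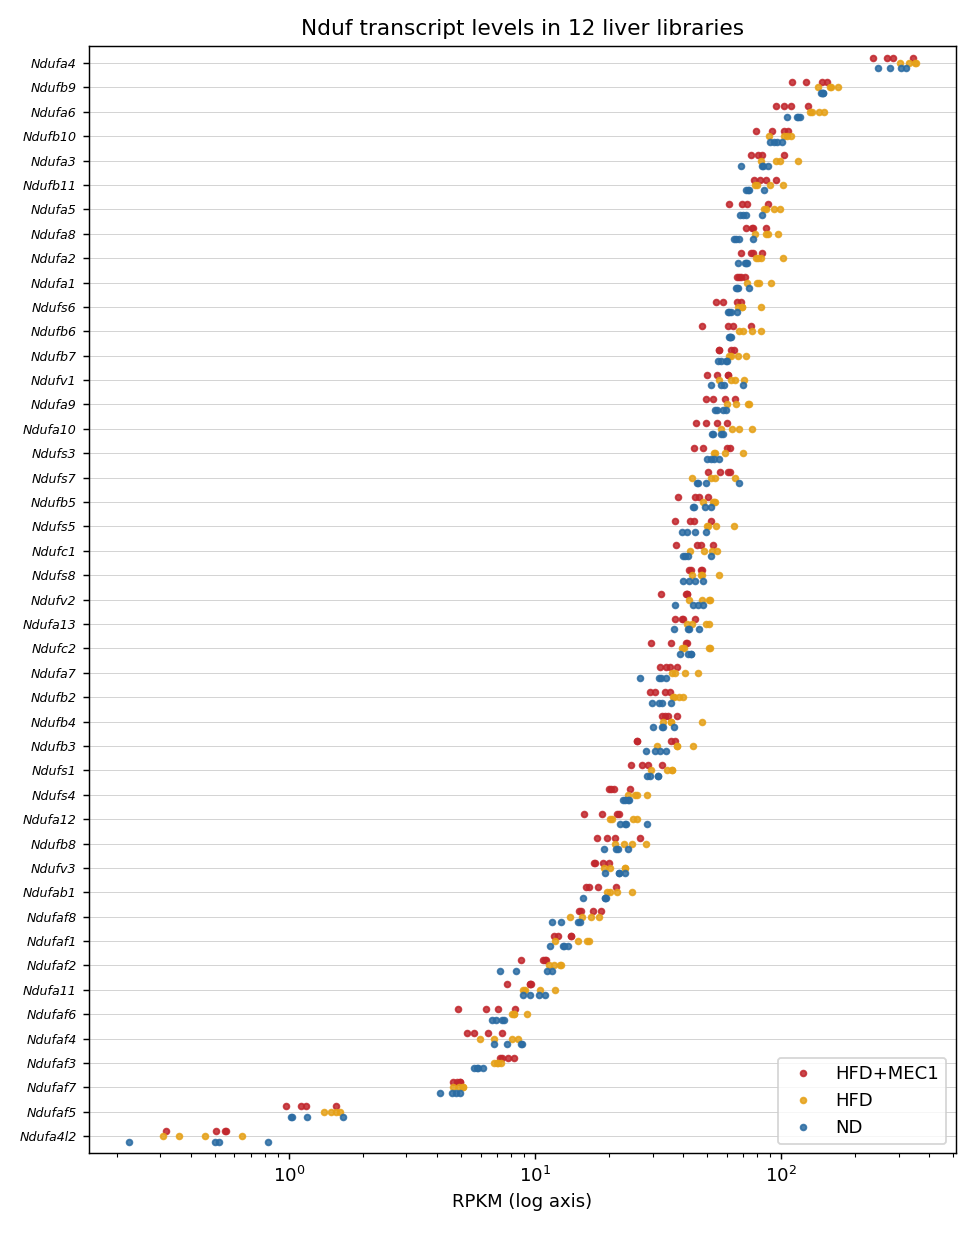
RPKM on a log axis of 45 Nduf transcripts, ordered by the median over libraries, with 1 point per library and the 3 groups in 3 colours. Subunit medians lie between 9.54 RPKM for Ndufa11 and 147 RPKM for Ndufb9, Ndufa4 lies above them, and the Ndufaf transcripts and Ndufa4l2 fill the low end.

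Summed over the 36 subunits, transcripts stood at 1915 ± 191 RPKM in HFD+MEC1, 2206 ± 184 RPKM in HFD and 1916 ± 51.6 RPKM in ND livers (SD, n = 4 each). The 8 Ndufaf transcripts summed to 66.4 ± 3.84, 72.4 ± 4.92 and 62.8 ± 2.23 RPKM in the same order of groups. HFD livers had the highest sum for both. RPKM carry no TMM scaling, the scaling between libraries that the fits below use. Its factors were 0.910 to 0.986 in ND, 1.01 to 1.11 in HFD and 0.957 to 1.10 in HFD+MEC1. With it, the subunit median on the log2 scale was 0.09 for HFD minus ND and -0.10 for HFD+MEC1 minus ND.

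The comparison of HFD+MEC1 with HFD asks what the compound did on a high-fat diet. No Nduf transcript passed the test: 0 of 46 were called, against 0.0282% of all tested genes. The fitted differences nevertheless lay on one side, with 35 of 36 subunits below 0 in HFD+MEC1, against 48.9% of tested genes. The median over subunits was -0.20 on the log2 scale, a level 13.1% below that of HFD, and over all tested genes it was 0.01. The largest subunit difference was that of Ndufa6, at -0.33. At an unadjusted p under 0.05, 19 of 36 subunits and 20 of 46 members were lower and 0 higher, against 7.96% of tested genes lower and 6.87% higher. DESeq2, on the same counts, called Ndufa6 and Ndufs4 lower and 389 genes in all. In 10 of 36 subunits the HFD+MEC1 libraries lay entirely below the HFD libraries, against 3.98% of tested genes. Members were measured in the same libraries and are not independent of each other.

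**Figure D2:**
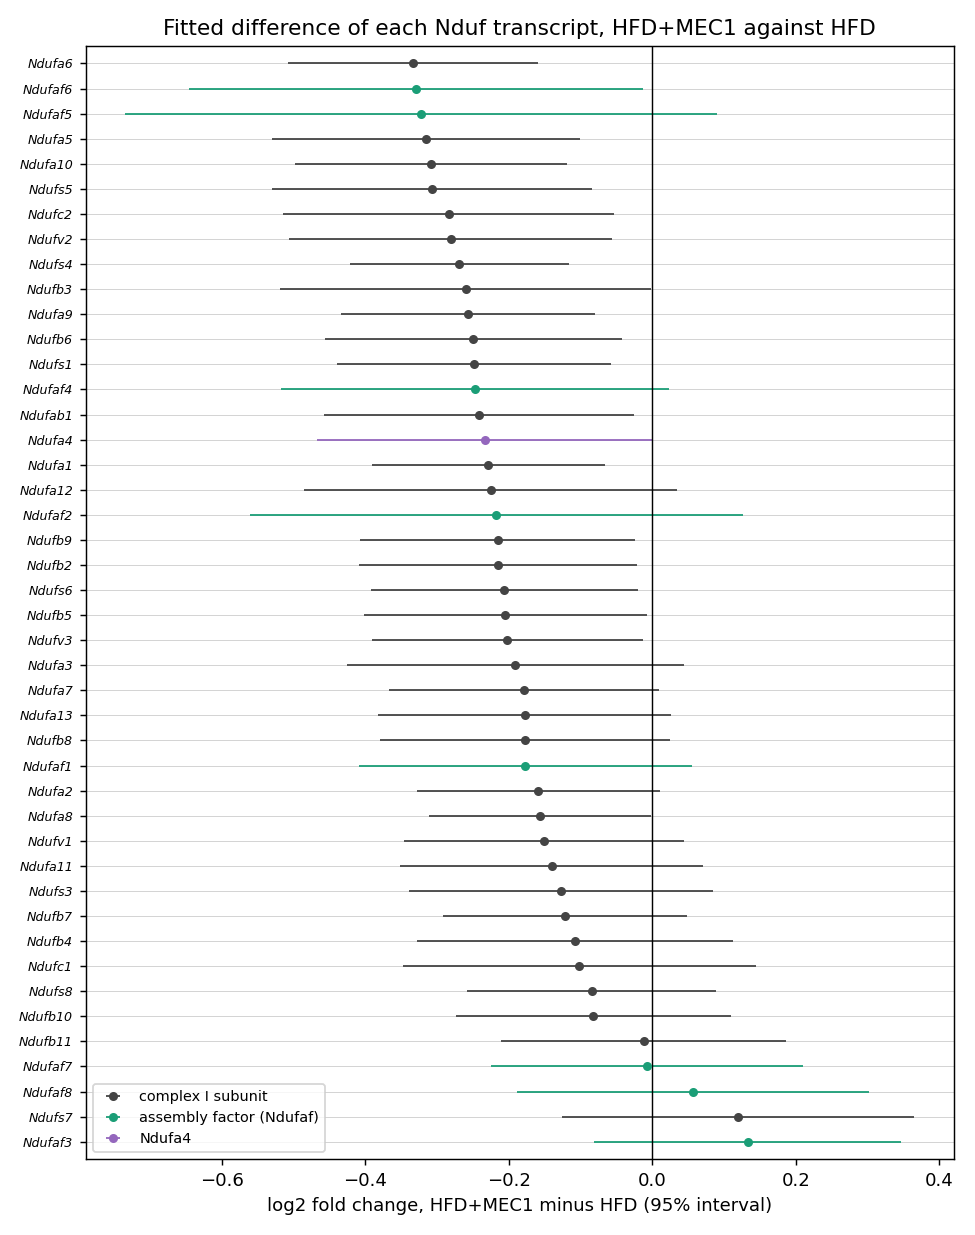
Fitted log2 fold change of HFD+MEC1 minus HFD with its 95% interval for 44 Nduf transcripts, ordered from the lowest at the top. Subunits are dark, Ndufaf transcripts green and Ndufa4 purple, and Ndufa4l2 is left out because its interval runs from -0.81 to 1.06. Points lie left of 0 for all but Ndufs7, Ndufaf3 and Ndufaf8, and 20 intervals lie wholly below 0.

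N module transcripts had 10 of 10 subunits below 0 and a median of -0.22. Ndufa6, which anchors the acyl carrier protein on the matrix arm, had 83.1, 73.3, 68.4 and 80.6 CPM in HFD+MEC1 livers, against 98.8, 94.998, 97.0 and 93.9 CPM in HFD livers, where CPM are counts scaled to a common library size. The groups did not overlap, and the lowest HFD library exceeded the highest HFD+MEC1 library. Its log2 fold change was -0.33 ± 0.08 (SE, adjusted p = 0.101 by edgeR), with a 95% interval of -0.51 to -0.16. The adjusted p by edgeR was 0.0336 without HFD+MEC1 replicate 1 and 0.0923 to 0.260 without any other single library. Without the replicates 3 of HFD+MEC1 and HFD it was 0.461. Ndufs4, a supernumerary subunit whose loss in mice gives a Leigh-like encephalopathy, had 42.7, 39.7, 39.0 and 41.9 CPM in HFD+MEC1 livers, against 48.5, 50.8, 50.8 and 46.7 CPM in HFD livers. Every HFD+MEC1 library was again below every HFD library, for a log2 fold change of -0.27 ± 0.07 (adjusted p = 0.124 by edgeR).

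**Figure D3:**
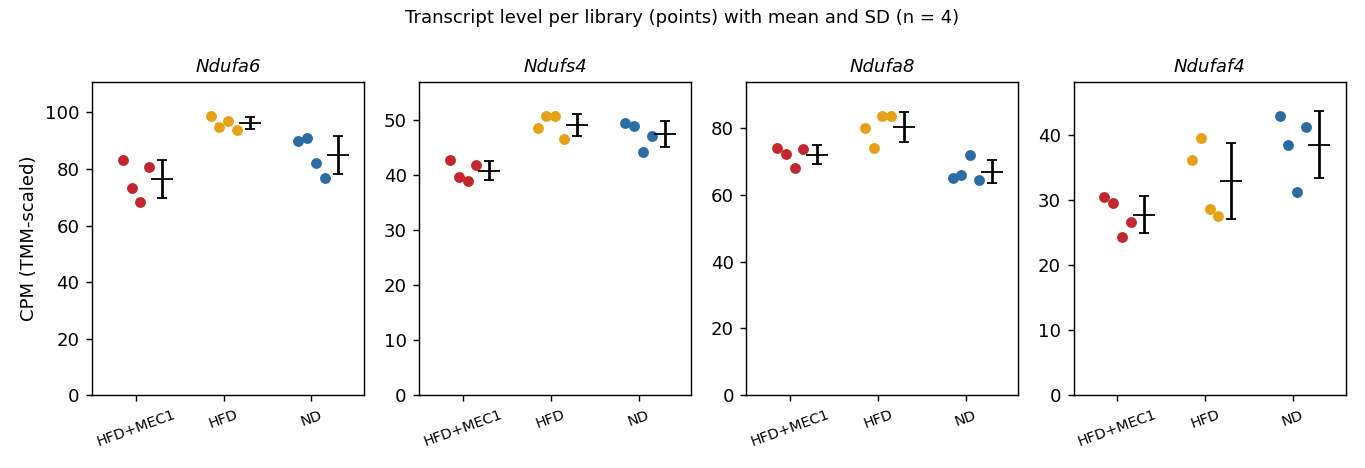
CPM per library of Ndufa6, Ndufs4, Ndufa8 and Ndufaf4 in HFD+MEC1, HFD and ND livers, with the mean and SD of each group of 4 beside the points and axes that start at 0. HFD+MEC1 points lie below all HFD points for Ndufa6 and Ndufs4, HFD points lie above all ND points for Ndufa8 and Ndufa6, and HFD+MEC1 points lie below all ND points for Ndufaf4 and Ndufs4.

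The catalytic subunits of the N module were measured at lower values as well, short of the test. Ndufv1, which binds NADH and the flavin, averaged 114 ± 10.2 CPM in HFD+MEC1 and 126 ± 7.95 CPM in HFD (log2 fold change -0.15 ± 0.09, adjusted p = 0.475 by edgeR), with overlapping libraries. Ndufv2, its iron-sulfur partner, had 78.1, 85.8, 68.0 and 88.6 CPM in HFD+MEC1 and 97.1, 107, 96.6 and 88.6 CPM in HFD, so that the highest HFD+MEC1 library and the lowest HFD library met at the same rounded value. Its log2 fold change was -0.28 ± 0.11 (adjusted p = 0.229 by edgeR). Ndufs1 averaged 104 ± 8.73 CPM in HFD+MEC1 and 123 ± 8.90 CPM in HFD, with a log2 fold change of -0.25 ± 0.09 (adjusted p = 0.215 by edgeR).

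Q module transcripts had 5 of 6 subunits below 0 and a median of -0.14. Ndufa5, a supernumerary Q module subunit, had 56.4, 48.7, 43.2 and 52.7 CPM in HFD+MEC1 livers, against 59.5, 60.4, 60.0 and 70.2 CPM in HFD livers. The groups did not overlap, and 1 HFD library, replicate 4, was well above the other HFD libraries. Its log2 fold change was -0.32 ± 0.10 (adjusted p = 0.174 by edgeR). Ndufa9, which has the fold of a short-chain dehydrogenase and binds NADPH, averaged 93.6 ± 8.61 CPM in HFD+MEC1 and 112 ± 7.80 CPM in HFD, with a log2 fold change of -0.26 ± 0.08 (adjusted p = 0.177 by edgeR) and libraries that overlapped.

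Of the core of the Q module, Ndufs3, a scaffold of the module, differed by -0.13 ± 0.10 on the log2 scale and Ndufs8, which carries iron-sulfur clusters, by -0.08 ± 0.08, neither past the test. Ndufs7, the subunit with the last cluster before ubiquinone, was the 1 subunit above 0. It had 54.3, 48.9, 54.9 and 60.9 CPM in HFD+MEC1 livers and 49.0, 42.4, 57.6 and 52.5 CPM in HFD livers. These ranges overlapped, and the log2 fold change of 0.12 ± 0.12 had an interval of -0.13 to 0.37 (adjusted p = 0.683 by edgeR). The 29 supernumerary subunits of both arms had a median of -0.21, with 29 of 29 below 0.

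Membrane arm transcripts were below 0 in 9 of 9 proximal and 10 of 10 distal subunits, each with a median of -0.19. Ndufa10, a proximal subunit related to nucleoside kinases, had 84.6, 76.3, 70.0 and 87.1 CPM in HFD+MEC1 livers, against 101, 87.8, 107 and 97.7 CPM in HFD livers. Every HFD+MEC1 library was below every HFD library, the nearest pair being HFD+MEC1 replicate 4 and HFD replicate 2. The log2 fold change was -0.31 ± 0.09 (adjusted p = 0.143 by edgeR). Ndufs5 and Ndufa1, both proximal, and Ndufb5, distal, also had groups that did not overlap, with log2 fold changes of -0.31, -0.23 and -0.20. Distal subunits ran from -0.26 for Ndufb3 to -0.01 for Ndufb11. A gene on the other strand overlaps 12.3% of the exonic bases of Ndufb5 and 12.9% of those of Ndufb11. Ndufab1, the mitochondrial acyl carrier protein, which binds in both arms, was at -0.24 ± 0.10 (adjusted p = 0.286 by edgeR).

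The 8 Ndufaf transcripts had a median of -0.20, with 6 below 0 and 0 called. Ndufaf1, part of the membrane arm assembly complex, differed by -0.18 ± 0.11, Ndufaf4, which assembles the Q module together with Ndufaf3, by -0.25 ± 0.13, and Ndufaf6, required for early assembly, by -0.33 ± 0.15. Ndufaf5, which hydroxylates Ndufs7, stood at -0.32 ± 0.19 and its partner Ndufaf8 at 0.06 ± 0.12. Ndufaf7, a methyltransferase of the mitochondrial matrix, stood at -0.01 ± 0.10. Ndufaf3 had 10.1, 10.6, 10.04 and 10.02 CPM in HFD+MEC1 livers, against 9.27, 9.23, 8.74 and 9.88 CPM in HFD livers. It was the 1 of 46 members whose HFD+MEC1 libraries all lay above the HFD libraries, against 3.13% of tested genes, and its difference of 0.13 ± 0.10 did not pass the test (adjusted p = 0.580 by edgeR). Ndufaf2, a paralog of Ndufa12, was at -0.22 ± 0.16, but 65.6% of its exonic bases overlap a gene on the other strand and the use of strand in counting is not given in the sources used here. Ndufa4 differed by -0.23 ± 0.11 and Ndufa4l2 by 0.12 ± 0.44, both overlapping.

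The 95% intervals bound what these samples could show. For 43 of 46 members the interval lay within a 1.5-fold difference in either direction, the others being Ndufa4l2, Ndufaf5 and Ndufaf6. The largest unadjusted p that was called in this comparison was 1.41e-05, and that of Ndufa6 was 0.000909.

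Nuclear genes of the other respiratory complexes were read in the same way. All 41 tested genes of complexes II to V, among them the ATP synthase inhibitor Atpif1 and the supercomplex factor Cox7a2l, were below 0 in HFD+MEC1 against HFD, with a median of -0.22. At an unadjusted p under 0.05, 24 of 41 were lower, against 7.96% of tested genes, and 13 of 41 were lower without overlap, against 3.98%. None was called (smallest adjusted p = 0.164 by edgeR). The smallest p-values of each complex belonged to Sdhc and Sdhd (log2 fold changes -0.28 and -0.23), Uqcr10 and Uqcrfs1 (-0.28 and -0.23), Cox7b and Cox7c (-0.31 and -0.47), and Atp5f1 and Atp5g3 (-0.30 and -0.33). Within each library, the summed RPKM of complex I subunits was 0.397 ± 0.00386 of that of complexes II to V in HFD+MEC1, 0.388 ± 0.00711 in HFD and 0.385 ± 0.00691 in ND (SD, n = 4 each). The HFD+MEC1 and HFD ranges of this ratio overlapped.

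Other lists were read in the same comparison. The 10 genes for subunits of NADH-producing enzymes, of the citric acid cycle and pyruvate dehydrogenase, had a median of -0.21 with 9 below 0 and 0 called. Pdha1, the catalytic subunit of pyruvate dehydrogenase, averaged 113 ± 19.7 CPM in HFD+MEC1 and 157 ± 13.7 CPM in HFD (log2 fold change -0.47 ± 0.11, adjusted p = 0.101 by edgeR). The 11 complex I assembly factors outside the Ndufaf names had a median of -0.07 with 7 below 0 and 0 called. The 11 regulators of respiratory chain transcription had a median of 0.03 with 5 below 0 and 0 called. Ppargc1a, a coactivator of mitochondrial genes, was at -0.43 ± 0.21 (adjusted p = 0.350 by edgeR).

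**Figure D4:**
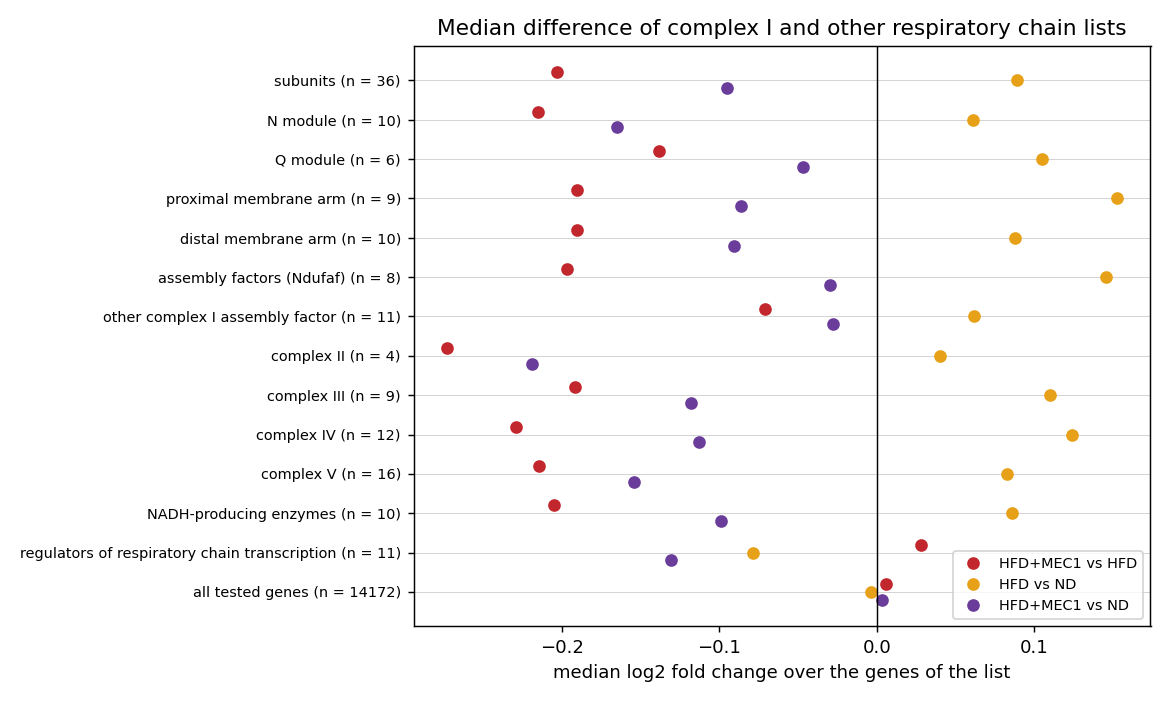
Median log2 fold change of each gene list in the comparisons HFD+MEC1 minus HFD, HFD minus ND and HFD+MEC1 minus ND, with the number of tested genes beside the name. Every complex I module and complexes II to V lie left of 0 for HFD+MEC1 minus HFD and right of 0 for HFD minus ND, while the median of all 14172 tested genes is near 0 in each.

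The subunits were not equally low in the 4 HFD+MEC1 libraries. A score per library, the median over 36 subunits of log2 CPM minus the ND mean, was -0.07, -0.14, -0.28 and 0.02 in HFD+MEC1 replicates 1 to 4, 0.09, 0.08, 0.18 and 0.05 in HFD replicates and 0.04, 0.07, -0.01 and -0.08 in ND replicates. HFD+MEC1 replicate 3 was the lowest of the 12 and HFD replicate 3 the highest. Among the 8 libraries of these groups, HFD+MEC1 replicate 3 held the lowest value in 22 of 36 subunits and HFD replicate 3 the highest in 18. Without HFD+MEC1 replicate 4, 21 of 36 subunits had HFD+MEC1 libraries wholly below the HFD libraries, against 5.85% of the genes tested in that set. That library was singled out because its subunit score was nearest to those of HFD, so a higher count of subunits was built in. The share of all genes is not a fair background for it, as the library was not chosen on those genes. Leaving out any other single library of HFD+MEC1 or HFD gave 9 to 13 subunits. Without HFD+MEC1 replicate 3 the median over subunits was -0.14 with 35 of 36 below 0. Without both replicates numbered 3 it was -0.14 with 34 of 36 below 0, and 10 lay lower without overlap, against 6.8% of the genes tested in that set.

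**Figure D5:**
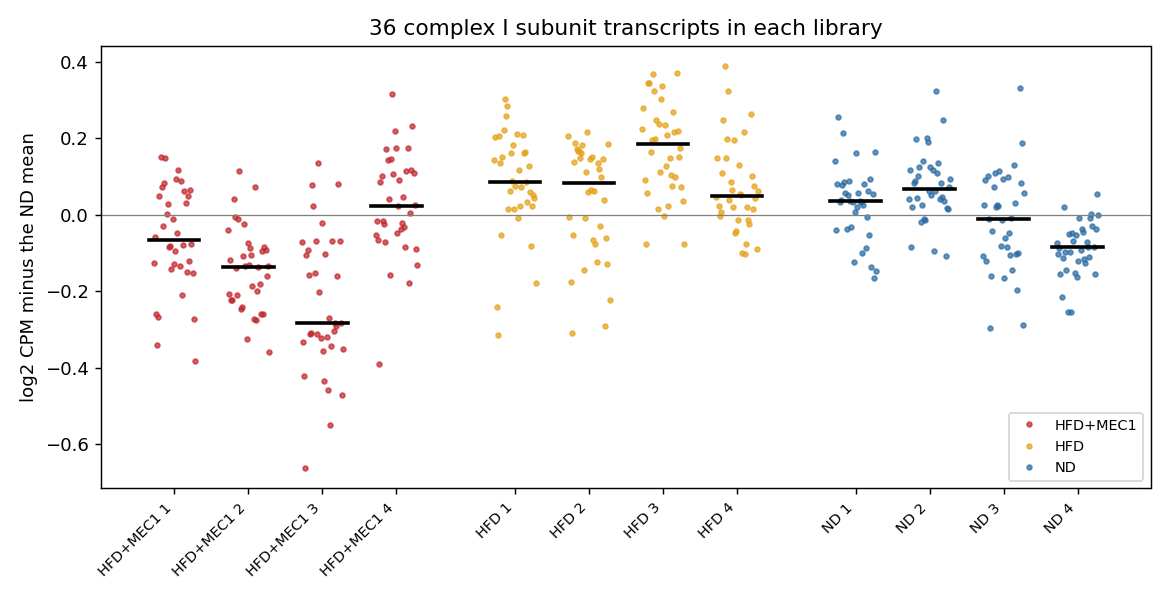
Each point is 1 of the 36 complex I subunit transcripts in 1 library, as log2 CPM minus its mean over the ND libraries, and the bar is the median over subunits. The bars of HFD+MEC1 replicates 1 to 3 lie below 0 and that of replicate 4 at 0.02, while the 4 HFD bars lie above 0, up to 0.18 in replicate 3.

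Cell type markers moved with these values in part, and their part in the result was not tested. The score of 8 hepatocyte markers, on the scale used for the subunits, was 0.03, -0.12, -0.30 and 0.13 in HFD+MEC1 replicates 1 to 4, -0.14, -0.01, 0.02 and 0.10 in HFD and -0.00, 0.04, 0.02 and -0.02 in ND, so it was lowest in the library with the lowest subunits. Between HFD+MEC1 and HFD, 4 of 8 hepatocyte markers were above 0 and 4 below. Macrophage markers had 7 of 8 above 0, and their sum was 142 to 180.2 RPKM in HFD+MEC1, 112 to 184 RPKM in HFD and 88.4 to 142 RPKM in ND. Sinusoidal endothelial markers had 5 of 8 above 0 and summed to 97.6 to 119, 96.7 to 102 and 58.4 to 89.0 RPKM in the same groups. Neutrophil markers summed to 4.91 to 20.1 RPKM in HFD+MEC1, with the highest sum in replicate 3, against 2.54 to 15.2 RPKM in HFD and 3.13 to 7.18 RPKM in ND, and 2 of 3 tested markers were above 0. The remaining lists had 3 of 7 stellate cell, 2 of 5 cholangiocyte, 3 of 7 lymphocyte and 0 of 5 erythroid markers above 0. None of these markers was called between HFD+MEC1 and HFD.

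The comparison of HFD with ND asks what the diet did. A single Nduf transcript passed the test, and it rose: Ndufa8, a proximal membrane arm subunit of the intermembrane space. It was 1 of 46 members, against 6.3% of all tested genes called in either direction and 3.35% called higher. Ndufa8 had 79.9, 74.1, 83.7 and 83.6 CPM in HFD livers, against 65.2, 66.0, 72.0 and 64.5 CPM in ND livers. Each HFD library was above each ND library, with HFD replicate 2 and ND replicate 3 nearest to each other. The log2 fold change was 0.26 ± 0.07 (adjusted p = 0.0409 by edgeR). The call was lost without any 1 of HFD replicates 1, 3 and 4 or ND replicates 1, 2 and 4, with adjusted p between 0.0836 and 0.133. It was also lost without the low-count filter (adjusted p = 0.0587 by edgeR), with only the 8 libraries compared (0.0510), with the replicate number as a block (0.0618) and without the replicates 3 of HFD+MEC1 and HFD (0.102). The log2 fold change was at least 0.24 in all of these.

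Fitted differences between HFD and ND were above 0 in 32 of 36 subunits, against 49.4% of tested genes, with a median of 0.09. Leaving out single libraries gave medians of 0.05 to 0.12, the lowest without ND replicate 4, and 28 of 36 were above 0 without the replicates 3 of HFD+MEC1 and HFD, with a median of 0.06. In 5 subunits the HFD libraries lay wholly above the ND libraries, against 7.46% of tested genes. Ndufa7, an N module subunit, had 60.8, 55.4, 63.7 and 56.6 CPM in HFD livers, against 51.4, 53.8, 51.9 and 41.4 CPM in ND livers. The groups did not overlap, and ND replicate 4 was well below the rest (log2 fold change 0.25 ± 0.09, adjusted p = 0.106 by edgeR). Ndufa2, Ndufa6 and Ndufb6 were the others without overlap, at 0.18, 0.18 and 0.16; 39.0% of the exonic bases of Ndufb6 and 11.5% of those of Ndufa2 overlap a gene on the other strand. No core subunit passed the test, with log2 fold changes of -0.06 for Ndufs7, 0.01 for Ndufv1, 0.04 for Ndufv2, 0.07 for Ndufs1, 0.07 for Ndufs3 and 0.05 for Ndufs8.

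The values of HFD against ND depended on how libraries were scaled. Scaling by library totals alone moved the median of all tested genes to 0.12 and that of the subunits to 0.22, and Ndufa7 was then called together with Ndufa8. Relative to the median of all genes, the subunits lay 0.09 higher under the main scaling and 0.10 higher under library totals.

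Ndufaf transcripts were above 0 in 6 of 8 between HFD and ND, with a median of 0.15 and 0 called. Ndufaf3 did not overlap, with 9.28 ± 0.469 CPM in HFD and 8.28 ± 0.234 CPM in ND (log2 fold change 0.17 ± 0.10, adjusted p = 0.386 by edgeR). Ndufaf4 was at -0.23 ± 0.13 and Ndufaf7 at -0.00 ± 0.10. The rest were Ndufaf1 at 0.13, Ndufaf2 at 0.24, Ndufaf5 at 0.20, Ndufaf6 at 0.15 and Ndufaf8 at 0.14. Ndufa4 stood at 0.12 ± 0.11 and Ndufa4l2 at -0.31 ± 0.44.

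Among the other lists, 2 of 11 regulators were called lower on HFD, against 418 of 14172 tested genes. Esrra, the estrogen-related receptor alpha that acts on respiratory chain genes, averaged 23.3 ± 3.79 CPM in HFD and 33.6 ± 2.80 CPM in ND (log2 fold change -0.52 ± 0.12, adjusted p = 0.0182 by edgeR). Nrf1, the factor whose motif is marked in the promoters above, averaged 6.94 ± 0.458 CPM in HFD and 9.61 ± 1.23 CPM in ND (log2 fold change -0.47 ± 0.12, adjusted p = 0.0325 by edgeR). Neither group overlapped the other for these genes, and a link between them and the subunit values was not tested. Of the genes of NADH-producing enzymes, 1 of 10 was called higher, against 3.35% of tested genes. It was Pdhb of pyruvate dehydrogenase, with 113 ± 8.60 CPM in HFD and 88.0 ± 7.71 CPM in ND (log2 fold change 0.36 ± 0.10, adjusted p = 0.0366 by edgeR). Complexes II to V had 32 of 41 genes above 0, a median of 0.10 and 0 called (smallest adjusted p = 0.0627 by edgeR, for Atp5e). Of the hepatocyte markers, Cps1 of the urea cycle fell by 1.18 on the log2 scale (adjusted p = 0.00498 by edgeR) and 4 of 8 were above 0. Macrophage markers had 8 of 8, endothelial 7 of 8, lymphocyte 6 of 7, erythroid 4 of 5, neutrophil 2 of 3, stellate cell 2 of 7 and cholangiocyte 0 of 5 above 0, the last with a median of -0.52, and 0 called. Their part in these values was not tested.

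The comparison of HFD+MEC1 with ND sets the treated mice on the high-fat diet beside those on the normal diet. It shares libraries with each of the other comparisons, so its values are not independent of theirs. A single Nduf transcript passed the test, and it fell: Ndufaf4, an assembly factor of the Q module. It was 1 of 46 members, against 4.54% of all tested genes called in either direction and 2.4% called lower. Ndufaf4 had 30.5, 29.6, 24.3 and 26.6 CPM in HFD+MEC1 livers, against 42.9, 38.5, 31.3 and 41.3 CPM in ND livers. The groups did not overlap, with HFD+MEC1 replicate 1 and ND replicate 3 less than 1 CPM apart. The log2 fold change was -0.47 ± 0.13 (adjusted p = 0.0455 by edgeR). HFD livers had 36.2, 39.5, 28.6 and 27.5 CPM, a range that overlapped both other groups. The Ndufaf4 call was lost without any 1 of HFD+MEC1 replicates 2, 3 and 4 or ND replicates 1, 2 and 4, and with library totals, limma-voom or RPKM, with adjusted p between 0.0535 and 0.136.

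Its partner Ndufaf3 had the opposite sign. Ndufaf3 had 10.1, 10.6, 10.04 and 10.02 CPM in HFD+MEC1 livers, against 8.29, 8.36, 7.95 and 8.50 CPM in ND livers. Every HFD+MEC1 library was above every ND library, and both ranges were narrow (log2 fold change 0.30 ± 0.10, adjusted p = 0.109 by edgeR). It was called higher by DESeq2 and by limma on RPKM. The other Ndufaf transcripts overlapped between these groups, from -0.18 for Ndufaf6 to 0.20 for Ndufaf8, with -0.05 for Ndufaf1, 0.03 for Ndufaf2, -0.12 for Ndufaf5 and -0.01 for Ndufaf7.

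Subunits were below 0 in 31 of 36 between HFD+MEC1 and ND, against 49.4% of tested genes, with a median of -0.10 and 0 called. Leaving out single libraries gave medians of -0.14 to -0.05, the nearest to 0 without HFD+MEC1 replicate 3. With library totals as the scale the median was -0.02. The lowest differences were those of Ndufa12 and Ndufv3, both of the N module, followed by Ndufc2 of the proximal membrane arm at -0.26. Ndufa12, which takes the place of Ndufaf2 late in assembly, had 14.2, 15.4, 11.3 and 13.7 CPM in HFD+MEC1 livers, against 21.4, 18.2, 16.5 and 16.1 CPM in ND livers. The groups did not overlap (log2 fold change -0.40 ± 0.12, adjusted p = 0.0738 by edgeR). Ndufv3, a flavoprotein subunit, had 34.4, 35.0, 35.2 and 40.9 CPM in HFD+MEC1 livers, against 40.5, 47.8, 46.6 and 44.8 CPM in ND livers. HFD+MEC1 replicate 4 alone reached into the ND range (log2 fold change -0.30 ± 0.09, adjusted p = 0.0635 by edgeR). The adjusted p by edgeR was 0.0440 without that library and 0.0623 to 0.156 without any other single library. With library totals it was 0.191. DESeq2 called Ndufa12 and Ndufv3 lower. Ndufs4 averaged 40.8 ± 1.77 CPM in HFD+MEC1 and 47.5 ± 2.43 CPM in ND, without overlap (log2 fold change -0.22 ± 0.07, adjusted p = 0.0991 by edgeR). Ndufa12 and Ndufs4 were the only subunits without overlap, 2 of 36, against 5.84% of tested genes lower in this way.

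No core subunit passed the test between HFD+MEC1 and ND, with Ndufv2 at -0.24 ± 0.11, Ndufs1 at -0.18 ± 0.09 and Ndufv1 at -0.14 ± 0.09. In the Q module core, Ndufs3 was at -0.06, Ndufs7 at 0.06 and Ndufs8 at -0.03, and the intervals of these 3 all included 0. Ndufa8 was highest of the subunits at 0.11 ± 0.07 (adjusted p = 0.469 by edgeR). Ndufa4 was at -0.11 ± 0.11 and Ndufa4l2 at -0.19 ± 0.44. Of the regulators, 1 of 11 was called lower, against 2.4% of tested genes. It was Esrra, which averaged 20.3 ± 2.99 CPM in HFD+MEC1 and 33.6 ± 2.80 CPM in ND (log2 fold change -0.73 ± 0.12, adjusted p = 0.00366 by edgeR). Complexes II to V had 35 of 41 genes below 0 with a median of -0.15 and 0 called. Genes of NADH-producing enzymes had 9 of 10 below 0 with a median of -0.10 and 0 called. Of the cell type markers, Cps1 and the cholangiocyte marker Epcam fell (log2 fold changes -1.14 and -1.59) and Clec4g of the endothelium rose (0.49), with adjusted p of 0.00762, 0.0148 and 0.0306 by edgeR. Macrophage and endothelial markers were above 0 in 8 of 8 each, neutrophil in 3 of 3, erythroid in 4 of 5, lymphocyte in 4 of 7 and hepatocyte markers in 4 of 8. Stellate cell markers were below 0 in 7 of 7, with a median of -0.32, and cholangiocyte markers in 4 of 5, with a median of -0.85. Their part in these values was not tested.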

How the data were processed

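Liver total RNA was sequenced in 12 samples, 4 each of HFD+MEC1, HFD and ND, grouped by the sample titles. Per the file headers, the authors deposited a file of whole-number counts by gene symbol per library, and RPKM values of all libraries together. STAR 2.7.10a and mm10 are named in the submitters' processing notes; the counter, annotation, strand and filters are not given in the sources used here. Between 70.1 and 74.7% of counts from 1 to 20 were even, and the reason was not tested. Another 12 RPKM columns bear names of none of these samples and were not used, and 244 to 296 genes a library had 0 counts but an RPKM above 0. No pair of libraries in a group agreed within sampling noise (chi-square per gene at least 35.9).

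Genes were filtered with filterByExpr (14172 kept), scaled by TMM and fitted as 3 groups with the robust quasi-likelihood test of edgeR 4.0.16 in R 4.3.3, two-sided, with Benjamini-Hochberg adjustment over all 14172 genes and a threshold of 0.05. Levels are CPM on TMM-scaled totals as mean ± SD, and log2 values of single libraries used a prior count of 2. Log2 fold changes carry their SE and a 95% interval from the model. The common biological coefficient of variation was 0.200. A count of 3, the floor for counting error, is 0.0590 to 0.0770 CPM. Alternatives were 11 settings of scaling, filter, tool (DESeq2 1.42.0, limma 3.58.1), unit, block and samples fitted (only the 8 compared), and each library left out. The fit was also run on simulated counts with planted changes larger than any subunit difference here. No result rests on that run.

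The Nduf symbols and the other lists were chosen with earlier results of these data known. Members named with values were the core subunits, of which 1 is not reported here by name, the Ndufaf genes, Ndufa4 and Ndufa4l2, and in each comparison those past the threshold, the 5 smallest p-values and the extremes; of other lists, genes past the threshold, and in HFD+MEC1 against HFD some with the smallest p. Subunits named beyond this rule, for lack of overlap or at the ends of a range, were chosen after their values were seen. Gene positions are from GENCODE M21 (GRCm38), 1-based.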

Additional observations from a re-analysis of the deposited data

Results flagged for a closer look

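In 7 of 81 groups of 4 libraries examined, 1 library lay far from the other 3 by Dixon's test; chance alone flags about 5% of groups, here 4.05. HFD libraries account for 3 of them. Ndufa5 was at 70.2 CPM in HFD replicate 4, while its HFD counterparts held 59.5 to 60.4 CPM. Ndufa2 was at 71.4 CPM in HFD replicate 3, against 60.6 to 61.8 CPM in the others. Ndufv1 was at 115 CPM in HFD replicate 2, against 129 to 132 CPM. In HFD+MEC1, replicate 4 was high in Ndufs8, at 64.0 CPM against 55.6 to 56.6 CPM in the others, and in Ndufv3, at 40.9 CPM against 34.4 to 35.2 CPM. Ndufaf3 was at 10.6 CPM in HFD+MEC1 replicate 2, against 10.02 to 10.1 CPM. In ND, Ndufs7 was at 65.2 CPM in replicate 3, while the rest of ND held 47.1 to 48.9 CPM.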

How the results depend on the processing

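Of the alternatives, the fit without both replicates 3 (HFD+MEC1 and HFD) was chosen after seeing the data. For all genes, DESeq2 called 389 between HFD+MEC1 and HFD, 1391 between HFD and ND and 1155 between HFD+MEC1 and ND, against 4, 893 and 644 by edgeR. Between HFD+MEC1 and HFD the count was 0 with library totals, 0 with log2(RPKM + 0.1), 1 with log2(RPKM + 1), 2 with limma-voom, 17 without the low-count filter, 2 with only the 8 libraries compared, and 0 without both replicates 3. Leaving out single libraries gave 0 to 460 calls between HFD+MEC1 and HFD (460 without HFD+MEC1 replicate 1, 72 without HFD replicate 4, 7 or fewer otherwise), 423 to 911 between HFD and ND, and 334 to 678 between HFD+MEC1 and ND.

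Of the Nduf members, between HFD+MEC1 and HFD, DESeq2 called 2 (Ndufa6 and Ndufs4), and leaving out single libraries gave 0 to 1. Between HFD and ND, where edgeR called 1, library totals called 2 (Ndufa7 and Ndufa8), among 1139 genes called in all. In that comparison 0 passed without the low-count filter, 0 with only the 8 libraries compared, 0 without both replicates 3, and 0 to 1 without single libraries. Between HFD+MEC1 and ND, where edgeR called 1, DESeq2 called 4 (Ndufa12, Ndufaf3, Ndufaf4 and Ndufv3), library totals 0, limma-voom 0, the fit without both replicates 3 gave 0, and 0 to 1 passed without single libraries. The subunit median between HFD and ND was 0.09, against 0.22 with library totals, 0.19 with log2(RPKM + 0.1) and 0.18 with log2(RPKM + 1). Subunits without overlap numbered 5 with library totals, 4 with RPKM and 9 to 21 without single libraries between HFD+MEC1 and HFD (10 as reported). They numbered 13, 12 and 5 to 8 between HFD and ND (5 as reported), and 1, 1 and 2 to 8 between HFD+MEC1 and ND (2 as reported). The share of all tested genes was not counted with library totals or RPKM, so the numbers under those settings have no background here. With library totals, the median of all tested genes between HFD and ND was itself 0.12. Without single libraries, 9.53 to 16.3%, 16.7 to 20.5% and 13.9 to 18.3% of tested genes had no overlap in these 3 comparisons. The causes of these shifts were not tested.

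Deviations from the group means correlated at -0.0942 to 0.133 over 12 pairs of libraries with the same replicate number. Pairs with different numbers were not compared, so a shared pairing cannot be judged from these values. With the replicate block, 21 of 14172 tested genes were called between HFD+MEC1 and HFD, 896 between HFD and ND and 716 between HFD+MEC1 and ND. Of the 46 members, 0 were called between HFD and ND and 2 between HFD+MEC1 and ND (Ndufaf4 and Ndufv3).

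The sign changed for 15 of 61 gene results, none of which passed the test. Between HFD+MEC1 and ND, library totals, log2(RPKM + 0.1) and log2(RPKM + 1) gave log2 fold changes of 0.024, 0.033 and 0.031 for Ndufaf1, 0.059, 0.070 and 0.059 for Ndufaf7, 0.014, 0.0091 and 0.0091 for Ndufs3, and 0.037, 0.048 and 0.047 for Ndufs8. Between HFD and ND they gave 0.12, 0.093 and 0.079 for Ndufaf7, with 0.0041 by limma-voom, and 0.069, 0.043 and 0.042 for Ndufs7. Without both replicates 3, Ndufa4l2 was at -0.14 between HFD+MEC1 and HFD. Ndufaf2 was then at -0.018 and Ndufs3 at 0.012 between HFD+MEC1 and ND, and Ndufaf7 at 0.011 and Ndufv1 at -0.014 between HFD and ND. Without single libraries, the ranges between HFD+MEC1 and HFD were -0.042 to 0.37 for Ndufa4l2 and -0.035 to 0.048 for Ndufaf7. Between HFD and ND they were -0.56 to 0.035 for Ndufa4l2, -0.067 to 0.037 for Ndufaf7, -0.13 to 0.061 for Ndufs7, -0.00042 to 0.089 for Ndufs8, -0.049 to 0.066 for Ndufv1 and -0.057 to 0.087 for Ndufv2. Between HFD+MEC1 and ND they were -0.43 to 0.16 for Ndufa4l2, -0.099 to 0.14 for Ndufaf2, -0.22 to 0.086 for Ndufaf5, -0.070 to 0.045 for Ndufaf7 and -0.15 to 0.013 for Ndufs3.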
